A study of Homo sapiens with 6 samples.

Results

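The insulin-like growth factor (IGF) binding protein genes IGFBP1 to IGFBP7 and the receptor genes IGF1R, IGF2R and INSR were examined, 10 genes of the 63677 listed in the deposited count table. They were taken by symbol, and all 10 were found. RNA was sequenced from UWB1.289 cells, a human ovarian cancer line that the paper describes as BRCA1-deficient and the sample labels as genotype WT. The 3 Olaparib libraries came from cells kept for 24 h in medium with 4 µM of the PARP inhibitor Olaparib (the design text of the series says 10 µM), and the 3 DMSO libraries from cells kept for 24 h with the solvent. Both groups grew in the same medium, a 1:1 mix of RPMI and MEGM with MEGM supplements and serum, and all 6 libraries are from 1 line. Each library held 35360458 to 39640775 counts. The 10 genes were selected on knowledge of their counts in this comparison, among them the Olaparib to DMSO difference of IGFBP3, so the differences of the 10 genes are given as a description, without p values.

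IGFs are secreted ligands that bind the receptor tyrosine kinase IGF1R and, with other affinities, the insulin receptor INSR, which signal through adaptor proteins to PI3K, AKT and TOR. IGF2R, also the cation-independent mannose 6-phosphate receptor, takes up IGF2 and lysosomal enzymes. The IGFBPs are secreted proteins, of which the first 6 bind IGFs with high affinity and thereby limit or prolong their action, whereas IGFBP7 binds them weakly. IGFBP3 is the main carrier of IGFs in blood, and it is also known for effects on cells that do not need IGF binding.

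The promoter sequences show how the IGFBP genes differ in the bases before their RefSeq starts. Printed here are 4, those of the IGFBP transcripts with the largest differences (IGFBP3, IGFBP5 and IGFBP4) and of IGFBP2, the neighbour of IGFBP5. Each runs 5′ to 3′ over the 250 bases before the RefSeq start on GRCh38.p14. Gene positions given below come from GENCODE, whose starts can differ. The IGFBP3 window lies within the GENCODE gene (45912245 to 45921874, minus strand). That of IGFBP6 (53097417 to 53097666, plus strand) runs past the GENCODE start at 53097436. The start used in these cells was not measured. Capitals mark matches, on either strand, to the GC box GGGCGG, the TATA box TATAAA or its variant TATATA, or the TEAD site GGAATG.
IGFBP3 (chr7:45921273-45921522, minus strand): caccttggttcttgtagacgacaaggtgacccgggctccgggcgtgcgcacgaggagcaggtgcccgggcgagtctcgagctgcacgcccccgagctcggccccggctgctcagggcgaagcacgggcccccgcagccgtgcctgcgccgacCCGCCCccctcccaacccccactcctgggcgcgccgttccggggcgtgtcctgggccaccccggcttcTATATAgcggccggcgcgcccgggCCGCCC
IGFBP5 (chr2:216695550-216695799, minus strand): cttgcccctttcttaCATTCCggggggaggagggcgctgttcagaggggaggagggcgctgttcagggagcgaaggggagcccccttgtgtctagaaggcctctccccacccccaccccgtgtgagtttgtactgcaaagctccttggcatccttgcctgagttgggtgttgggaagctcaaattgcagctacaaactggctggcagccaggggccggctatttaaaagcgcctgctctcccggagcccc
IGFBP4 (chr17:40443200-40443449, plus strand): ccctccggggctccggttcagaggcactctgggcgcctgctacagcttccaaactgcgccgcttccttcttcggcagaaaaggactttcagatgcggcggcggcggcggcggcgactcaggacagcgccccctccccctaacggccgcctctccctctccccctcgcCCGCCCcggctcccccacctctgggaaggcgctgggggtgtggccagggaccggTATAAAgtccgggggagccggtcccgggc
IGFBP2 (chr2:216632578-216632827, plus strand): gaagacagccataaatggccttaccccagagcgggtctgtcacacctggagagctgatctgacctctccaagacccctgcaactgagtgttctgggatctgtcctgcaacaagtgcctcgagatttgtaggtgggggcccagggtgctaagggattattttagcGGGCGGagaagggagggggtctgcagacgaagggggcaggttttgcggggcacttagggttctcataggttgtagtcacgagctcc

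Of the 10 genes, 8 were matched in the RefSeq promoter table, all but IGFBP1 and IGFBP7. The IGFBP3 promoter was the richest in G and C of the 5 IGFBP promoters at 76.0%, with 32 CpG dinucleotides. IGFBP4 followed at 71.6% with 24, whereas IGFBP5 had 61.2% with 8 and IGFBP2 56.8% with 7. Over all 35116 promoters of this length the medians were 58.0% and 11. The variant TATATA lay 30 bases before the RefSeq start of IGFBP3 and TATAAA 29 bases before that of IGFBP4. These 2 motifs, which can overlap each other, occur in 3.73% and 10.7% of all promoters. The GC box was found in 7 of the 8 promoters, IGFBP5 being the exception, and in 42.6% of all promoters. The TEAD site, present in 11.9% of all promoters, was found in IGFBP5 and IGFBP6. The E-box CACGTG (6.34% of all promoters) was found 3 times in IGF2R, and the FOXO site TGTTTAC (2.98%) in IGFBP6. The AP-1 site TGANTCA (6.57%) matched no promoter of the set. These matches describe letters in a window and do not show binding.

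Levels between genes were compared as TPM (transcript abundance), that is, counts divided by the exonic length of the gene and scaled to the same sum in every library. In DMSO, the order was IGFBP4 (213 ± 1.45 TPM, SD, n = 3), IGFBP3 (159 ± 2.24), IGFBP2 (152 ± 1.64), IGFBP7 (132 ± 4.70), IGFBP6 (41.0 ± 0.901), IGF2R (36.0 ± 1.26), IGFBP5 (22.4 ± 0.0897), IGF1R (18.8 ± 0.408) and INSR (0.837 ± 0.0125). No 2 neighbours in this order overlapped over the 3 DMSO libraries. After Olaparib the order was the same, and the ranges of IGFBP2 and IGFBP7 and those of IGFBP6 and IGF2R overlapped. This order depends on the length used, most of all for IGFBP2, since its union of exons is far longer than its longest coding transcript. With the longest coding transcript as the length, IGFBP2 came first in DMSO at 357 TPM, followed by IGFBP3 at 193 and IGFBP4 at 149. IGFBP3 thus passed IGFBP4, and IGF2R at 40.0 TPM passed IGFBP6 at 32.7.

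IGFBP1, a binding protein made mainly by liver and decidua, had 0 counts in 5 libraries and 1 count in DMSO replicate 3. All 6 libraries were thus at or under the floor of 3 counts, which corresponds to 0.0757 to 0.0848 CPM (counts scaled to the library total), and no difference could be measured at this depth. IGFBP1 (chromosome 7, 45888360 to 45893660, plus strand) and IGFBP3 (45912245 to 45921874, minus strand) lie on GRCh38 with their 3′ ends facing, 18584 bases apart with no annotated gene between them. The other pair of neighbours, IGFBP2 (chromosome 2, 216632828 to 216664436, plus strand) and IGFBP5 (216672105 to 216695549, minus strand), is 7668 bases apart and also has no gene between. In the first pair one gene was at the floor and the other abundant, and in the second both were measured.

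Normalized read counts, which are counts adjusted to equal library size with TMM factors (edgeR), are given below in the order of replicates 1, 2 and 3. IGFBP3 (ENSG00000146674) was at 11063, 10760 and 10913 normalized counts with Olaparib, against 7464, 7407 and 7520 with DMSO. All 3 Olaparib libraries lay far above all 3 DMSO libraries, and the 2 groups were each tight. The coefficient of variation over replicates was 1.39% after Olaparib and 0.757% after DMSO, where counting alone would give 0.962% and 1.15%. The means were 10912 ± 151 and 7464 ± 56.5 (SD, n = 3 each), 46.2% higher after Olaparib, which is a log2 fold change (log2 difference) of 0.55 (standard error, SE, 0.029). It lay between 0.54 and 0.56 when each library was left out in turn. As RNA came from whole cultures, more cells that express a gene and more RNA per cell cannot be told apart, here or for the genes below.

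**Figure D1:**
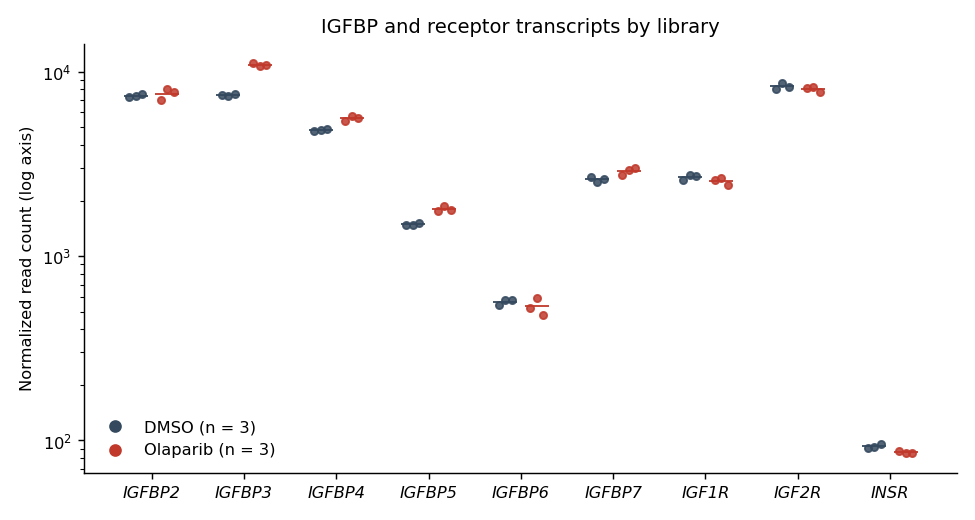
Normalized read counts (log axis) of the 9 genes above the floor in each of the 3 DMSO (dark) and 3 Olaparib (red) libraries, with lines at the group means. The Olaparib libraries of IGFBP3 sit between 10760 and 11063 and those of DMSO between 7407 and 7520, while the points of IGFBP2, IGFBP6, IGF1R and IGF2R overlap between groups.

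IGFBP5 and IGFBP4 differed in the same direction by less. IGFBP5, which binds to extracellular matrix as well as to IGFs, was at 1753, 1869 and 1777 normalized counts with Olaparib, against 1465, 1481 and 1502 with DMSO. The groups did not overlap, and the log2 difference was 0.28 (SE 0.042, 21.4% higher). The lncRNA DIRC3-AS1 covers 7.53% of the exonic bases of IGFBP5 on the other strand and had 1 count in total. IGFBP4 (chromosome 17, 40443450 to 40457725, plus strand), which the protease PAPPA cuts to set IGFs free, was at 5425, 5769 and 5607 normalized counts with Olaparib, against 4775, 4801 and 4871 with DMSO. These groups did not overlap either, with a log2 difference of 0.22 (SE 0.033, 16.3% higher).

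IGFBP7 (chromosome 4, 57030773 to 57110385, minus strand), a protein of the vessel wall and matrix, was at 2757, 2915 and 2995 normalized counts with Olaparib, against 2667, 2533 and 2629 with DMSO. The lowest Olaparib library was only slightly above the highest DMSO library, and the log2 difference was 0.15 (SE 0.040). Exons of IGFBP7-AS1 (18 counts in total) and of POLR2B cover 18.3% of its exonic bases on the other strand. POLR2B, which encodes a subunit of RNA polymerase II, averaged 6173 ± 158 normalized counts with Olaparib and 5916 ± 147 with DMSO (SD, n = 3 each), overlapping between groups, with a log2 difference of 0.06 (adjusted p = 0.377, edgeR). The paper names a stranded library kit, and since the strand setting of the counting was not given, the reads of IGFBP7 and POLR2B cannot be told apart where they overlap.

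IGFBP2 and IGFBP6 overlapped between the groups. IGFBP2, often abundant in ovarian carcinoma, was at 7035, 8020 and 7721 normalized counts with Olaparib, against 7308, 7345 and 7577 with DMSO. Replicate 1 of Olaparib was below and the other two were above the DMSO libraries, and the log2 difference was 0.03 (SE 0.035). It went to -0.0055 without Olaparib replicate 2. IGFBP6 (chromosome 12, 53097436 to 53102345, plus strand), which prefers IGF2 to IGF1, was at 525, 595 and 478 normalized counts with Olaparib, against 543, 577 and 577 with DMSO, which gave a log2 difference of -0.09 (SE 0.062). Its Olaparib libraries spread on both sides of the DMSO libraries, and without Olaparib replicate 3 the value was -0.02.

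All 3 receptors had fold changes below 0, each less than 2 SE from 0. IGF1R was at 2586, 2654 and 2440 normalized counts with Olaparib, against 2592, 2757 and 2716 with DMSO, which gave a log2 difference of -0.07 (SE 0.041). IGF2R was at 8192, 8227 and 7745 with Olaparib, against 8053, 8715 and 8289 with DMSO, which gave a log2 difference of -0.05 (SE 0.032). In both genes the groups overlapped. On GRCh38, IGF1R lies on chromosome 15 from 98648539 to 98964530 (plus strand), IGF2R on chromosome 6 from 159969082 to 160113507 (plus strand) and INSR on chromosome 19 from 7112255 to 7294414 (minus strand). The processed pseudogene CHP1P2 lies on the same strand across 2.52% of the exonic bases of IGF2R and had 448 counts in total.

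INSR had far fewer counts, 88.1, 85.1 and 85.5 after normalization in Olaparib and 91.0, 92.2 and 95.7 in DMSO. All 3 Olaparib libraries were lower, with a log2 difference of -0.11 (SE 0.13). The replicates varied by 1.85% and 2.67%, whereas counting alone would give 10.8% and 10.3%, so the gap between the groups is smaller than the counting error of a single library. In TPM, IGF1R exceeded INSR 23.1 ± 1.04 times after Olaparib and 22.5 ± 0.668 times after DMSO (SD, n = 3 each). For IGF2R over IGF1R the ratio was 1.94 ± 0.0251 and 1.92 ± 0.0334. Such ratios within a library do not depend on the scaling between libraries.

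**Figure D2:**
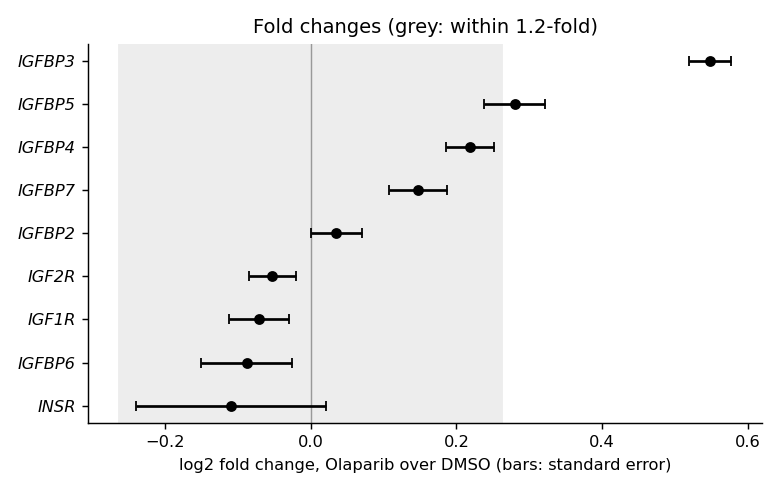
Log2 fold change of Olaparib over DMSO for the 9 genes above the floor, with bars for the standard error of edgeR's fit and grey for changes within 1.2-fold. IGFBP3 stands at 0.55, clear of the grey zone, IGFBP5 lies near its edge at 0.28, and the 3 receptors lie between -0.11 and -0.05.

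A gene was called when edgeR gave it an adjusted p under 0.05 (quasi-likelihood) and its absolute log2 fold change was above log2(1.2), which is 0.263. By this rule 2 of the 9 genes tested were called, IGFBP3 and IGFBP5, beside 1.21% of all 21729 genes tested, and 0.723% called as higher. Both were higher. Just above the fold threshold stood IGFBP5 at 0.280 and below it IGFBP4 at 0.218. Without Olaparib replicate 2, IGFBP5 was at 0.25 and only IGFBP3 was called. With an adjusted p under 0.05 alone, 4 genes passed, IGFBP3, IGFBP4, IGFBP5 and IGFBP7, all higher, beside 2.15% of all genes that were higher. IGFBP7 no longer passed when Olaparib replicate 2 or 3 or DMSO replicate 2 or 3 was left out (log2 fold changes of 0.14, 0.12, 0.13 and 0.15) or with upper-quartile scaling (0.14). The Olaparib libraries lay above all DMSO libraries in 4 of the 9 genes (10.0% of all genes) and below them in 1, INSR (9.29%), where 19.3% of all genes were apart in either direction. Among the 6 IGFBP genes tested the median log2 fold change was 0.182, among the 3 receptors -0.071 and over all genes tested -0.004. Since the genes were selected with this comparison known, nothing is read from these counts.

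The summed level of the IGFBP transcripts was 824, 863 and 846 TPM after Olaparib and 728, 711 and 720 TPM after DMSO. IGFBP3 made up 28.6%, 26.4% and 27.3% of this sum after Olaparib and 22.2%, 22.2% and 22.0% after DMSO. Its share was thus higher in every Olaparib library, by 5.34 percentage points on average, and by 5.86 with the longest coding transcripts as lengths. IGFBP2 went the other way, from 21.2% ± 0.206 to 18.4% ± 0.752 (SD, n = 3 each), although its own level overlapped between groups. IGFBP4 kept a share of 29.6% ± 0.154 in DMSO and 29.2% ± 0.166 after Olaparib, and that of IGFBP5 was 3.11% ± 0.0241 and 3.20% ± 0.0512. IGFBP6 held 5.69% ± 0.189 in DMSO and 4.55% ± 0.454 after Olaparib, and IGFBP7 18.3% ± 0.440 and 17.2% ± 0.476. The shares depend on the length used. With the longest coding transcripts, IGFBP2 held the largest, 40.9% in DMSO and 36.2% after Olaparib, and IGFBP4 17.1% in both. The ratio of IGFBP3 to IGF1R in TPM was 13.1, 12.4 and 13.6 after Olaparib and 8.79, 8.20 and 8.45 after DMSO.

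**Figure D3:**
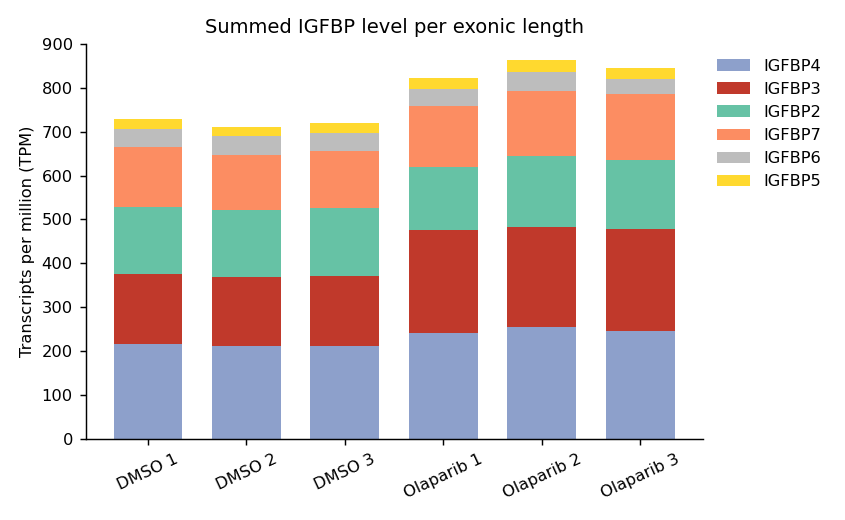
Level of the IGFBP transcripts in TPM per exonic length, stacked by gene, in each DMSO and Olaparib library. The summed bars reach 711 to 728 TPM in DMSO and 824 to 863 TPM after Olaparib, and the IGFBP3 segment (red) is the one that widens most.

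The genes whose pattern over the 6 libraries was most like that of IGFBP3 were found by the root mean square difference of log2 normalized counts, each gene centred on its own mean, among 11723 genes with a symbol and a mean of at least 100 normalized counts. The nearest was INHBA, which encodes the activin A subunit, at a difference of 0.0403. INHBA was at 557, 508 and 525 normalized counts with Olaparib, against 374, 353 and 353 with DMSO. PRKAR2B, a regulatory subunit of protein kinase A, followed at 0.0559, then FAM107A at 0.0575, the homeobox gene HHEX at 0.0604 and the keratin gene KRT6A at 0.0648. Their log2 fold changes were 0.56 (INHBA), 0.45 (PRKAR2B), 0.60 (FAM107A), 0.45 (HHEX) and 0.43 (KRT6A). KRT6A has near-identical paralogs, so its count is uncertain. IGFBP5 ranked 88 and IGFBP4 193 by this measure, at 0.140 and 0.169, behind many genes outside the family. The ranking covers 6 libraries in 2 groups and chiefly picks genes with a fold change of similar size.

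**Figure D4:**
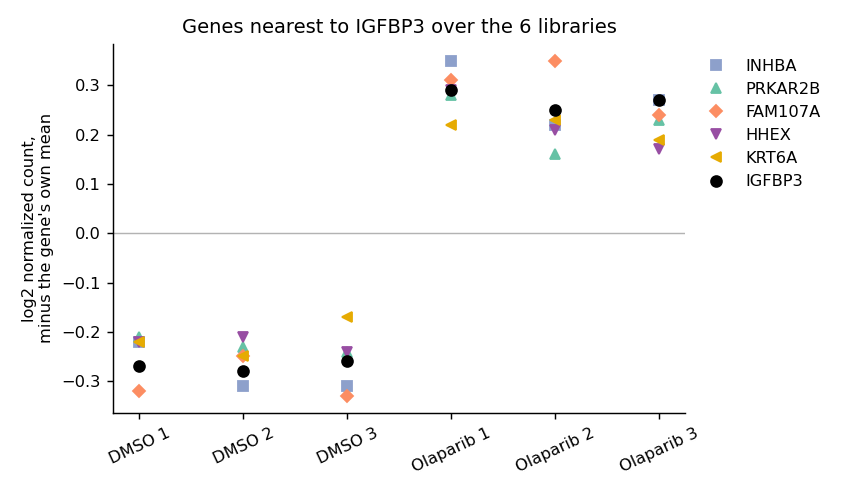
Log2 normalized count minus the gene's own mean in each library, for IGFBP3 (black) and the 5 genes nearest to it. All 6 genes lie above 0 in the Olaparib libraries and below 0 in the DMSO libraries, with IGFBP3 between 0.25 and 0.29 and between -0.28 and -0.26.

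The other genes of the pathway were taken from a list of 74 genes, none of them among the 10, of which 65 had more than 10 counts in total and were tested. The list came from general knowledge but was chosen with earlier results of these data known. Its counts and p values are thus a description. Over all genes tested, 4 of the 65 were higher and 1 was lower at an adjusted p under 0.05 (edgeR's quasi-likelihood test), where 3.36% of all genes passed. The median log2 fold change of the list was 0.029. Before adjustment, 14 higher and 5 lower genes of the 65 had p under 0.05, beside 7.83% of all genes that were higher and 6.97% that were lower by the same criterion.

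Few reads were assigned to the IGF ligands. IGF2 had 6 counts, the carrier subunit gene IGFALS 7 and INS 0 counts in total. IGF1 had 97 counts in total, with 19.2, 16.4 and 16.9 normalized counts in the Olaparib libraries and 12.5, 19.6 and 12.3 in the DMSO libraries, and the groups overlapped. HELLPAR, a lncRNA on the other strand, covers 82.5% of the exonic bases of IGF1, so even these reads are uncertain. Other genes, among them INS-IGF2 on the same strand, cover 44.4% of the exonic bases of IGF2 and 37.5% of those of INS, and reads there may have been left unassigned or given to those genes.

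Among genes outside the family whose protein has an IGFBP domain, 13 were listed and 10 tested. At an unadjusted p under 0.05 in edgeR, 2 were higher and 3 lower (7.83% and 6.97% of all genes). At an adjusted p under 0.05, 2 were higher and 1 was lower, beside 3.36% of all genes. CCN3 rose from 263, 223 and 243 normalized counts in DMSO to 330, 315 and 306 after Olaparib, which gave a log2 difference of 0.39 (SE 0.077, adjusted p = 0.00201, edgeR). ESM1, a proteoglycan of endothelial cells, was at 294, 252 and 259 normalized counts with Olaparib, against 222, 192 and 209 with DMSO. On the log2 scale it differed by 0.37 (SE 0.085, adjusted p = 0.00731, edgeR), with an adjusted p of 0.0626 without Olaparib replicate 1 and 0.0849 without DMSO replicate 2. KAZALD1, which has a Kazal domain beside the IGFBP domain, fell from 307, 286 and 282 to 236, 230 and 241 normalized counts. On the log2 scale it differed by -0.31 (SE 0.076, adjusted p = 0.0153, edgeR), against an adjusted p of 0.0860 from DESeq2. The adjusted p for KAZALD1 was 0.0712 without Olaparib replicate 2, 0.0758 without DMSO replicate 1 and 0.0535 without DMSO replicate 2. In each of these 3 genes the groups did not overlap, as in 19.3% of all genes, which says little for genes picked by adjusted p. They were the 3 of the 65 pathway genes called by the rule with the fold threshold, beside 1.21% of all genes. Exons of unnamed genes cover 7.80%, 1.63% and 10.1% of the exonic bases of CCN3, ESM1 and KAZALD1.

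Of 16 genes for IGFBP proteases and their inhibitors, 14 were tested. At an unadjusted p under 0.05 in edgeR, 4 were higher and 0 lower (7.83% and 6.97% of all genes). Beside 3.36% of all genes, 1 passed an adjusted p under 0.05. This was PAPPA2, a metalloprotease that cuts IGFBP3 and IGFBP5, which held 1053, 1065 and 1028 normalized counts with Olaparib, against 896, 945 and 909 with DMSO. The log2 difference of PAPPA2 was 0.19 (SE 0.046, adjusted p = 0.0111, edgeR), and the adjusted p was 0.100 without DMSO replicate 1 and 0.0550 without DMSO replicate 3. Its paralog PAPPA was low, at 24.3, 30.8 and 38.8 normalized counts with Olaparib, against 35.5, 30.4 and 29.4 with DMSO, with overlapping groups, and PAPPA-AS1 covers 21.1% of its exonic bases.

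Among 10 receptor adaptors and related genes, 9 were tested. At an unadjusted p under 0.05 in edgeR, 2 were higher and 1 lower (7.83% and 6.97% of all genes). Beside 3.36% of all genes, 1 passed an adjusted p under 0.05. IRS2, an adaptor that IGF1R and INSR phosphorylate, rose from 1191, 1242 and 1218 to 1451, 1397 and 1315 normalized counts, which gave a log2 difference of 0.19 (SE 0.046, adjusted p = 0.0125, edgeR, and 0.0856 without DMSO replicate 1). The related adaptor IRS1 overlapped between groups, with a log2 difference of 0.08 (SE 0.046, adjusted p = 0.443, edgeR). The difference between the changes of IRS2 and IRS1 was not tested.

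None of the 21 genes of PI3K, AKT and TOR signaling passed an adjusted p of 0.05 in edgeR, DESeq2 or limma voom, with 5 higher and 1 lower at an unadjusted p under 0.05 in edgeR (7.83% and 6.97% of all genes). Of these 21, PIK3R2 (22 counts in total) had no adjusted p from DESeq2, nor had the FOXO factor FOXO6 (141). Another gene covers 76.35% of the exonic bases of PIK3R2 on the same strand. No gene passed in any of the 3 tools among the 4 FOXO factors (1 higher at an unadjusted p under 0.05) or the 6 partners of IGFBP3 (0 at an unadjusted p under 0.05), a group that holds the IGFBP3 receptor gene TMEM219. TMEM219 averaged 2744 ± 97.4 normalized counts with Olaparib and 2728 ± 71.2 with DMSO (SD, n = 3 each).

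**Figure D5:**
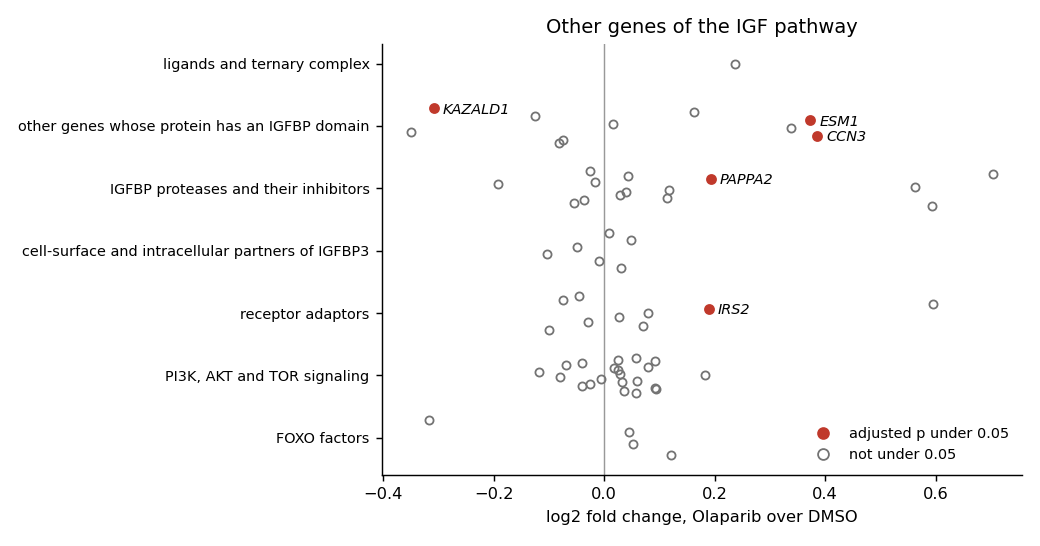
Log2 fold change of Olaparib over DMSO for the 65 pathway genes tested, by list, with filled points for an adjusted p under 0.05. The 5 filled points are CCN3 at 0.39, ESM1 at 0.37, PAPPA2 and IRS2 at 0.19 and KAZALD1 at -0.31.

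The labelled cell type was checked on markers. The 9 epithelial and Müllerian carcinoma markers summed to 12919 to 13585 CPM after Olaparib and 12955 to 13199 after DMSO. Most of this sum came from the keratin genes KRT7 (881948 counts in total), KRT8 (890085) and KRT18 (826770). Fewer fell on EPCAM (166126), KRT19 (103039), PAX8 (71086), MUC16 (10163), CDH1 (8191) and WT1 (8). Markers of fibroblasts summed to 56.2 to 63.0 and 58.4 to 60.0, of endothelium to 44.1 to 45.5 and 45.2 to 48.0, and of leukocytes to 3.34 to 3.84 and 2.83 to 3.48 CPM. LUM and PECAM1 had 0 counts, and PDGFRB, DCN and CD3E at most 6 in total. Other markers of these lists were measured, COL1A2 (8728 counts in total), THY1 (2729) and COL1A1 (1717) of fibroblasts and PTPRC (403) and CD14 (261) of leukocytes. Most of the endothelial sum came from CDH5 (9404 counts in total), and KDR had 528. VWF (327 counts in total) was the 1 called marker of all these lists, beside 1.21% of all genes. Its log2 fold change was 0.68 (adjusted p = 0.0106, edgeR, and 0.0710 with DESeq2). PAX8, with 0.10 (adjusted p = 0.0399, edgeR), passed the adjusted p alone. PAX8 no longer passed without Olaparib replicate 2 or 3 or DMSO replicate 1, 2 or 3 (adjusted p from 0.0609 to 0.206, edgeR) or with upper-quartile scaling (0.0604). The part of these cell type markers in the differences above was not tested.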

How the data were processed

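RNA was measured in UWB1.289 cells, 3 Olaparib and 3 DMSO libraries, grouped by the sample titles. According to the methods of the paper, the authors removed adapters (Trimmomatic), aligned to GRCh38 (STAR), marked duplicates (Picard) and counted reads per gene (featureCounts). The deposited values are whole-number counts per gene, not normalized. The strand setting and whether duplicates were removed are not given in the sources used here, and reads shared by overlapping genes cannot be told apart.

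Genes with more than 10 counts in total (21729) were kept, scaled by TMM and tested with edgeR 4.0.16 (quasi-likelihood, Benjamini-Hochberg over all genes tested) in R 4.3.3. DESeq2 1.42.0, limma 3.58.1 (voom), other scalings and filters, a replicate block, and leaving out each library were alternatives. Standard errors come from the fold change and the test's F statistic. Names, coordinates and exonic lengths came from GENCODE on GRCh38, which holds 96.0% of the tested identifiers, and promoters from RefSeq.

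The chi-square per degree of freedom between replicates of a group was 1.81 to 4.11 (15525 genes), more than sampling noise alone gives. It does not show whether they were separate cultures. All 6 were counted separately because the paper calls the replicates independent. Floors cover counting error only. The 10 genes and the pathway and marker lists were chosen with earlier results of these data known. Named were the 10 genes, genes whose exons overlap them, pathway genes with an adjusted p under 0.05, IGF1, IGF2, IRS1, IRS2 and the 5 genes nearest to IGFBP3 in pattern. PAPPA, TMEM219, ADAM12, PIK3R2, FOXO6 and the marker genes named singly were picked with their values in view.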

Additional observations from a re-analysis of the deposited data

How the results depend on the processing

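Of the 5 pathway genes that passed an adjusted p of 0.05, CCN3 alone passed under all 13 alternatives. ESM1, KAZALD1, PAPPA2 and IRS2 each lost it in at least 1 while keeping their direction, as did IGFBP7, and the cause was not tested. For IGFBP2 the log2 fold change went to -0.0055 without Olaparib replicate 2 (range -0.0055 to 0.09 with a library left out). The 10 genes and the 5 nearest to IGFBP3 were selected on this difference, so the number of them that kept a call is no measure of stability. The count of called genes over all genes was 262. It was 150 with DESeq2 (101 higher, 49 lower), 730 with an adjusted p under 0.05 alone and 65 with a fold threshold of 1.5, and 178 to 237 with a library left out. For the 10 genes the count of 2 became 4 with the adjusted p alone, 0 above 1.5-fold in edgeR (0 at an unadjusted p under 0.05, and 0 with DESeq2 or limma voom) and 1 to 2 with a library left out. For the pathway genes the count of 3 became 5, 0 in edgeR (1 at an unadjusted p under 0.05, ADAM12, and 0 with DESeq2 or limma voom) and 1 to 3. The lowest of these, 1, came without DMSO replicate 2.

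With the longest coding transcript as the length, mean levels in DMSO were 357 TPM for IGFBP2, 193 for IGFBP3, 149 for IGFBP4, 16.2 for IGFBP5, 32.7 for IGFBP6, 125 for IGFBP7, 15.0 for IGF1R, 40.0 for IGF2R and 0.669 for INSR. Of the 5 genes nearest to IGFBP3 in pattern, 2 stayed among the first 5 when a mean of 1000 normalized counts was required, since the others are less abundant. Deviations of same-numbered libraries correlated at -0.204, 0.263 and -0.319, and those of differently numbered libraries at -0.377 to 0.484. No pairing by replicate number was seen, but 3 libraries per group are too few to exclude it. With the replicate block, 291 genes were called in place of 262, with 2 of the 10 genes and 3 pathway genes. Depth limits IGFBP1, INSR, IGF1 and IGF2.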
